A study of Mus musculus with 6 samples.

Results

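Cells take particles and membrane in by several routes, and the 41 genes described here belong to those routes. They were chosen by symbol, from a list of genes of these routes, out of 54787 gene symbols in the table of linear transcripts. They fall into 16 genes of the clathrin coat and of vesicle scission, 7 of caveolae and flotillin domains, 4 of macropinocytosis, 10 of the endosome and 4 scavenger receptors. RNA came from the prefrontal cortex of male C57BL/6 mice, 5 weeks old when dosing began and 30 weeks old when sampled. The control group (3 samples, 0 mg/kg) was given water, and the PS_high group (3 samples) was given polystyrene nanoparticles (PS NPs) at 50 mg/kg, both by gavage each day for 6 months. The labels name no further allele or agent in either group. They do not state that each sample is 1 animal, so the p-values below measure the spread between these samples.

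In clathrin-mediated uptake the AP-2 adaptor links cargo and membrane to a clathrin lattice, and dynamin cuts the finished pit off as a vesicle. Caveolae are small flask-shaped invaginations built by caveolins and cavins, and in brain they belong chiefly to vascular cells. Macropinocytosis takes up fluid in folds of membrane that actin drives under the control of small GTPases. Vesicles of all routes meet in the early endosome, which Rab5 marks, and their content is then recycled through Rab11 or passed on to late endosomes, which Rab7 marks. Scavenger receptors bind modified lipoproteins, dying cells and particles directly, and microglia and macrophages are known for them. In cortex, neurons use much of the clathrin machinery to recover synaptic vesicles.

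The libraries held 53344395 to 66004386 estimated counts in linear transcripts, of which the members held 0.388% to 0.473%. PS_high 1 stood apart from the rest, at -62.2 on the first principal component (26.5% of the variance) where the other 5 libraries lay between -13.1 and 31.2. Neuronal markers were present in every library, at a summed 553 to 673 FPKM (fragments per kilobase of transcript, scaled by library size). Markers of choroid plexus, a tissue outside the cortex, ran from 5.64 to 237 FPKM in control and from 10.1 to 467 in PS_high, low in control 1 and in PS_high 1. The part of that variation in the results below was not tested.

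Promoter sequences are given first for 3 genes that the results turn on: Cdc42 and Rab7, whose groups did not overlap at gene level, and Rab5b, whose isoforms differed most between the groups. They are RefSeq sequences of GRCm38.p6, each from 250 bases before to 50 after the start of the gene, 5′ to 3′ on the strand of the gene. Capitals mark 2 motifs of general promoters, CCAAT and GGGCGG, the cyclic AMP response motif TGACGTCA, and the E-box motif CACGTG, all searched on both strands. The Cdc42 promoter lies at chr4:137357710-137358009, that of Rab7 at chr6:88045221-88045520 and that of Rab5b at chr10:128696219-128696518, all on the minus strand.
Cdc42: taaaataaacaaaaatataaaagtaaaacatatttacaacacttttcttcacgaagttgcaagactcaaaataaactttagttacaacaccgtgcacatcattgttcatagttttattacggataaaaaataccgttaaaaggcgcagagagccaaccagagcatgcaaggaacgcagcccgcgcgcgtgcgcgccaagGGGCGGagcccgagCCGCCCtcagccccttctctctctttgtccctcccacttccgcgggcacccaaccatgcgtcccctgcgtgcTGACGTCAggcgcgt
Rab7: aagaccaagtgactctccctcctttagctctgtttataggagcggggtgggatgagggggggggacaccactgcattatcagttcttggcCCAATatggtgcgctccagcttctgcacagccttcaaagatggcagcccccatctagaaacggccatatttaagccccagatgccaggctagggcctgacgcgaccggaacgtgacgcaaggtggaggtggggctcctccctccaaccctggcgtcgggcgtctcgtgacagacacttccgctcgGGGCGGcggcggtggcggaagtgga
Rab5b: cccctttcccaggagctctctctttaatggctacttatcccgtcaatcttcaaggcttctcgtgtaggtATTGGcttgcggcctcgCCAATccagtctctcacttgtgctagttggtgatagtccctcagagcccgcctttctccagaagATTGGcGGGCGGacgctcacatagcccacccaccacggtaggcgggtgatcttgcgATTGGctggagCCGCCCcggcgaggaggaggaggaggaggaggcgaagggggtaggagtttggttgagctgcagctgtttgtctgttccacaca

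In the Cdc42 window the search found 1 TGACGTCA and 2 GGGCGG motifs, counting reverse complements. The Rab7 window, 1 of 2 that RefSeq lists for that gene, held 1 CCAAT and 1 GGGCGG. Rab5b had 4 CCAAT and 2 GGGCGG motifs. Of the 41 members, 33 had a promoter in the RefSeq table, 39 promoters in all. GGGCGG stood in 87.2% of these 39 against 35.7% of all 32851 promoters of that length, and CCAAT in 56.4% against 37.4%. TGACGTCA was present in 12.8% of the members' promoters (Ap2b1, Cdc42, Cltb, Pak1 and Rab5a) against 1.79% of all. CACGTG stood in 15.4% (Ap2m1, Epn1, Pak1, Picalm and Rab5a) against 7.15%. These shares describe the letters only.

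Compared per length, clathrin heavy chain (Cltc) was the most abundant member, with a mean of 135 FPKM over the 6 libraries. Cdc42 followed at 75.6 FPKM, then the AP-2 beta subunit Ap2b1 at 57.2, the coat scaffold Eps15 at 49.1, the retromer subunit Vps35 at 48.0 and the clathrin assembly protein Picalm at 47.1. Cltc lay above Cdc42 in every library. Ap2b1 and its next 3 neighbours in this order overlapped from library to library, so their order is not resolved. In all, 26 of the 41 members exceeded 10 FPKM. Of the caveolar genes, Cav2 averaged 10.1 FPKM, while Cavin1 (2.57), Cavin2 (1.83) and Cav1 (1.74 FPKM) were far lower. Below 1 FPKM fell 3 members: the fatty acid and lipoprotein receptor Cd36 (0.503), Ehd2 (0.457), which stabilises the neck of caveolae, and the macrophage scavenger receptor Msr1 (0.121). Ehd2 and Msr1 missed the minimum mean of 0.5 FPKM for testing and Cd36 just passed it, which left 39 members tested.

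**Figure D1:**
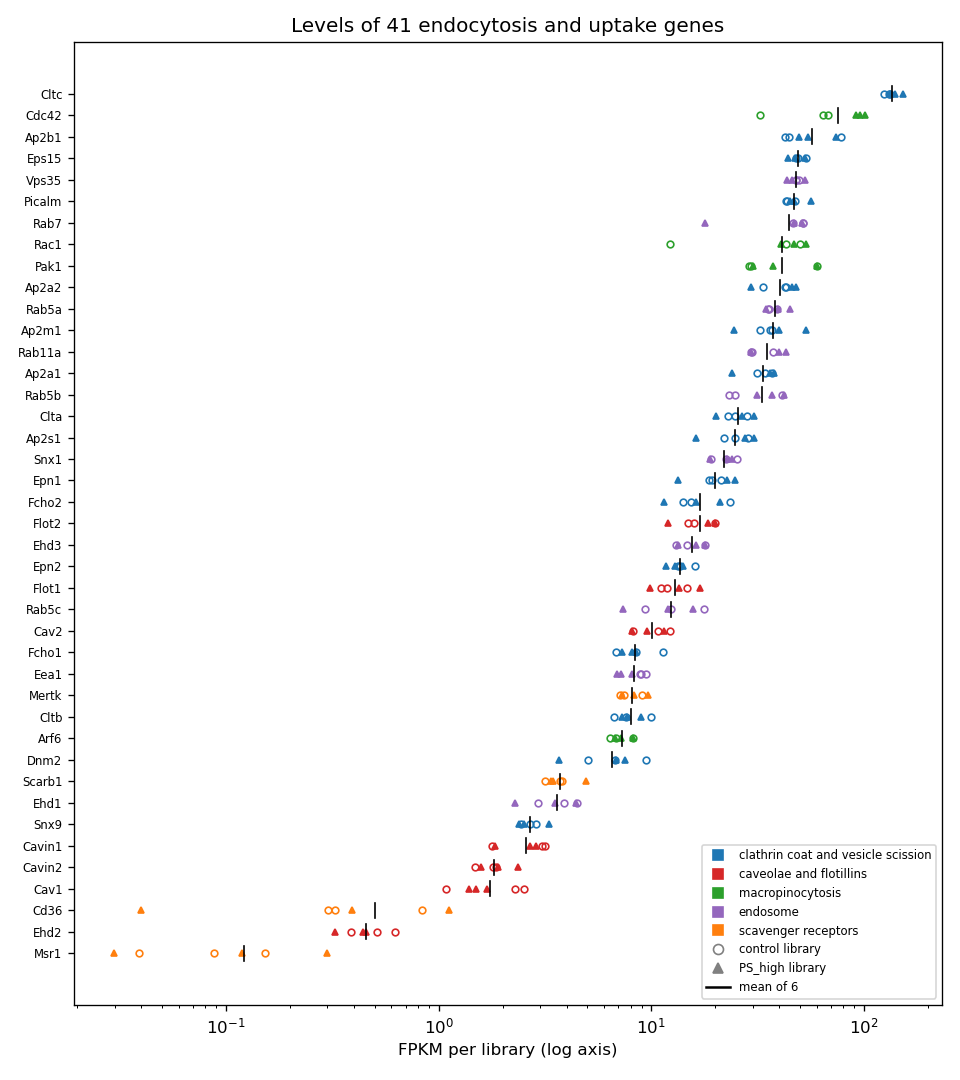
Level of each of the 41 members in FPKM on a log axis, with an open circle for each control library, a filled triangle for each PS_high library, a line for the mean of all 6 and a colour for each role. Cltc sits at the top with a mean of 135 FPKM and Msr1 at the bottom with 0.121, and circles and triangles are interleaved for most genes.

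The question of the design is whether daily oral PS NPs changed these transcripts in the cortex. At gene level edgeR's quasi-likelihood test called 0 of the 39 members at a Benjamini-Hochberg adjusted p under 0.05, where it called 0.0247% of all 20272 genes tested. At an unadjusted p under 0.05 it also found 0 members, against 2.73% of all genes. DESeq2 called 0 members, against 0.232% of all genes. With limma on log2(FPKM + 0.1), 0 of all 20272 genes were called, so its 0 members say nothing particular. The smallest unadjusted p was 0.0841 (Cdc42; adjusted p = 1.0, and 0.996 to 1.0 over all alternatives). The 95% interval of the fold difference stayed within 2-fold in both directions for 34 of the 39 members and within 1.5-fold in both directions for 23. The log2 difference, PS_high minus control, was above 0 for 27 members and below 0 for 12, with a median of 0.06. Over all genes 48.5% lay above 0, with a median of -0.01. Since these are whole pieces of cortex, fewer cells of a type and less RNA per cell cannot be told apart in any of these values.

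**Figure D2:**
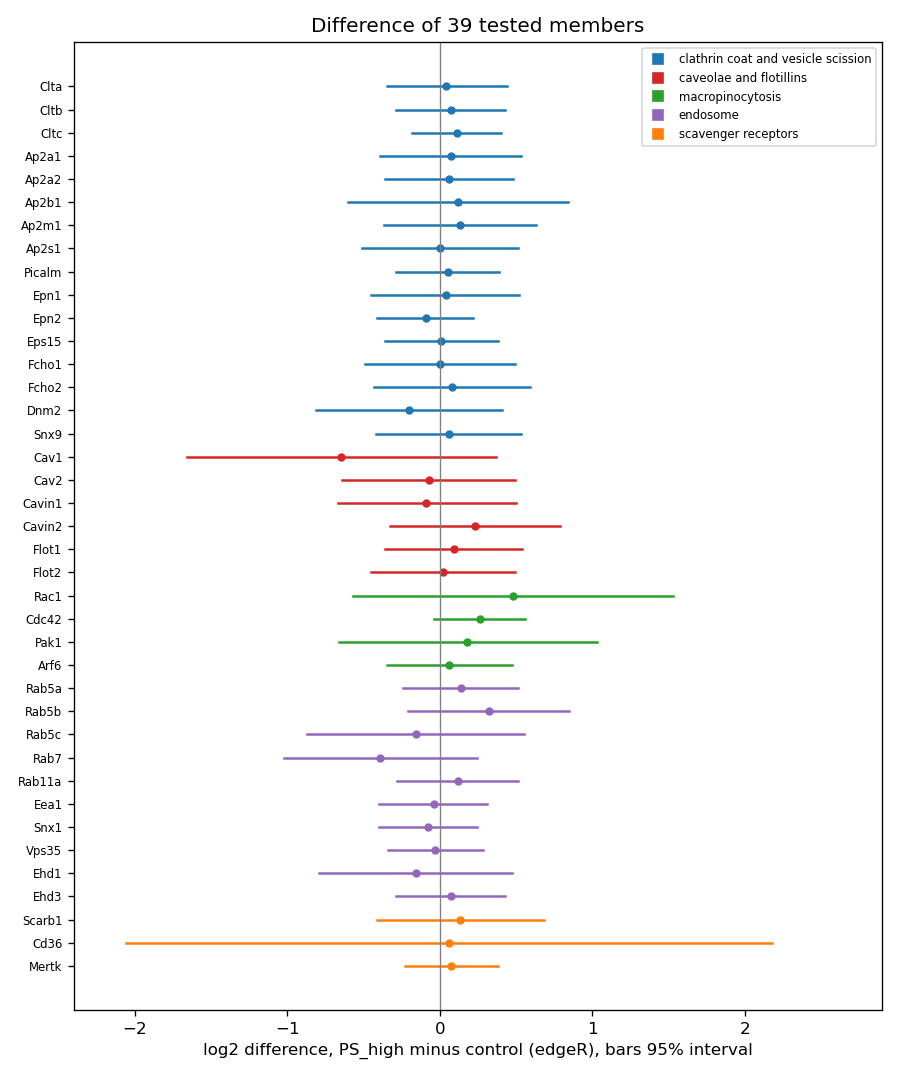
Estimated log2 difference in counts (PS_high minus control, edgeR) for the 39 tested members, with bars for the 95% interval and a colour for each role. Every interval includes 0, from Cdc42 (-0.04 to 0.56) to Cd36, whose interval from -2.06 to 2.18 is the widest.

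Groups that did not overlap from library to library were seen for 2 of the 39 members (5.13%), against 7.09% of all genes. Cdc42 was the 1 that lay higher in PS_high (3.34% of all genes) and Rab7 the 1 that lay lower (3.75% of all genes). A share near the background says nothing particular about the members.

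Clathrin chains and adaptors are described first. Cltc, whose trimers form the lattice, stood at 1386.1, 1303.1 and 1373.5 CPM (depth-scaled counts) in the controls and at 1575.3, 1327.9 and 1476.7 CPM in PS_high. The highest PS_high libraries exceeded all controls and the lowest fell among them. The mean was 1354.3 ± 44.7 against 1460.0 ± 125 CPM (SD, n = 3 each), a log2 difference of 0.11 with a standard error (SE) of 0.125 and a 95% interval of -0.18 to 0.40. The light chains Clta and Cltb, which regulate the lattice, had log2 differences of 0.04 and 0.07. Summed per length, the 3 clathrin chains gave 163, 162 and 162 FPKM in control and 167, 167 and 190 FPKM in PS_high. These sums did not overlap, and the exact two-sided permutation p was 0.1, the smallest that 3 against 3 samples allow. In CPM the sums overlapped, at 1465.8, 1373.6 and 1461.4 in control and 1651.1, 1412.5 and 1563.9 in PS_high (exact permutation p = 0.3).

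Of the 16 clathrin and scission genes, 13 lay above 0 and 3 below (Epn2, Dnm2 and Ap2s1, the last at 0.00 after rounding), with a median log2 difference of 0.05 and a range from -0.20 to 0.13. Dnm2, the dynamin found in most cell types, was the lowest of them, at 24.5, 40.9 and 25.6 CPM in control and 22.0, 33.3 and 24.0 CPM in PS_high. Its control 2 value was the highest and the groups overlapped (log2 difference -0.20, SE 0.262, unadjusted p = 0.472). Without control 2 the difference was 0.08.

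The 5 AP-2 subunits together gave 760, 801 and 1052.6 CPM in control and 721, 1141.6 and 927 CPM in PS_high (exact permutation p = 0.7). Most of that spread came from Ap2b1, described here after its values were seen, which stood at 279, 291 and 528 CPM in control and 324, 537 and 332 CPM in PS_high. A library of each group was thus high and the other two of each were low. The membrane-bending proteins Fcho1 and Fcho2, which start the pit, the epsins Epn1 and Epn2, which curve it, and Snx9, which brings dynamin and actin together, had log2 differences between -0.09 and 0.08.

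Tested genes of caveolae and flotillin domains divided evenly, with 3 of 6 above 0, 3 below and a median of -0.02. Those above were Cavin2 and the flotillins Flot1 and Flot2, and those below were Cav1, Cav2 and Cavin1. Cav1, the coat protein of caveolae, stood at 8.32, 8.89 and 3.44 CPM in control and 4.41, 6.10 and 2.68 CPM in PS_high. It was low in the third library of each group, and the groups overlapped. The log2 difference was -0.65 (SE 0.435, 95% interval -1.66 to 0.37), the lowest of the tested members on this scale, with an unadjusted p of 0.177. It ranged from -0.97 (without control 3, unadjusted p = 0.0357, or without PS_high 2) to -0.39 (without PS_high 3), with -0.42 without control 2. limma on log2(FPKM + 0.1) gave -0.26, where Rab7 was lower at -0.51. Cavin2, which shapes the caveolar membrane, was at 7.16, 8.08 and 8.24 CPM in control and at 11.8, 7.12 and 8.55 CPM in PS_high. The high value of PS_high 1 set its log2 difference of 0.23, which was 0.01 without that library. Flot2, a flotillin of lipid-raft domains, was at 60.4, 61.9 and 75.0 CPM against 50.1, 71.0 and 79.5 CPM, a log2 difference of 0.02 whose sign changed under several alternatives. Cav2, the partner of Cav1, Cavin1 and Flot1 lay at -0.07, -0.09 and 0.09. Markers of endothelial cells summed to 41.7 to 47.9 FPKM in control and 46.1 to 50.2 in PS_high. Those of mural cells summed to 22.5 to 25.0 and 20.8 to 29.8 FPKM.

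All 4 macropinocytosis genes lay above 0, with a median log2 difference of 0.22, and 0.07 without control 1. Cdc42, a GTPase that drives actin protrusions, was at 322, 301 and 315 CPM in control and at 414, 359 and 351 CPM in PS_high. Each PS_high library was above each control (313 ± 10.8 against 374 ± 34.1 CPM, n = 3), with a log2 difference of 0.26 (SE 0.130, 95% interval -0.04 to 0.56). In FPKM the distance was larger, with 32.3, 64.2 and 68.1 in control and 96.2, 92.0 and 101 in PS_high. limma on log2(FPKM + 0.1) gave a difference of 0.89, an unadjusted p of 0.0143 and an adjusted p of 1.0. These scales differ in how isoforms of unequal length enter. The annotated coding isoform ENSMUST00000030417, described after its values were seen, made up 0% of Cdc42 counts in control 1, 25.1% and 23.3% in the other controls and 38.0% to 40.7% in PS_high. Of the gene's counts, 67.8% lay in assembled isoforms, and with annotated isoforms alone the log2 difference was 1.41 (unadjusted p = 0.449).

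Rac1, the GTPase of ruffles and macropinocytic cups, was at 72.0, 254 and 296 CPM in control and 272, 279 and 315 CPM in PS_high. Control 1 was low and the other 5 libraries lay close together. The log2 difference of 0.48 (SE 0.450, 95% interval -0.57 to 1.53) was 0.07 without control 1. All 4 Rac1 isoforms summed are annotated. Pak1, a kinase that acts below Rac1 and Cdc42 and is named here after its values were seen, was at 134, 123 and 252 CPM against 281, 161 and 135 CPM. It was high in control 3 and PS_high 1, with a log2 difference of 0.18 (SE 0.362), and -0.19 without PS_high 1. Arf6, which returns membrane to the surface, was at 14.5 to 18.3 CPM in control and 16.2 to 18.6 CPM in PS_high.

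**Figure D3:**
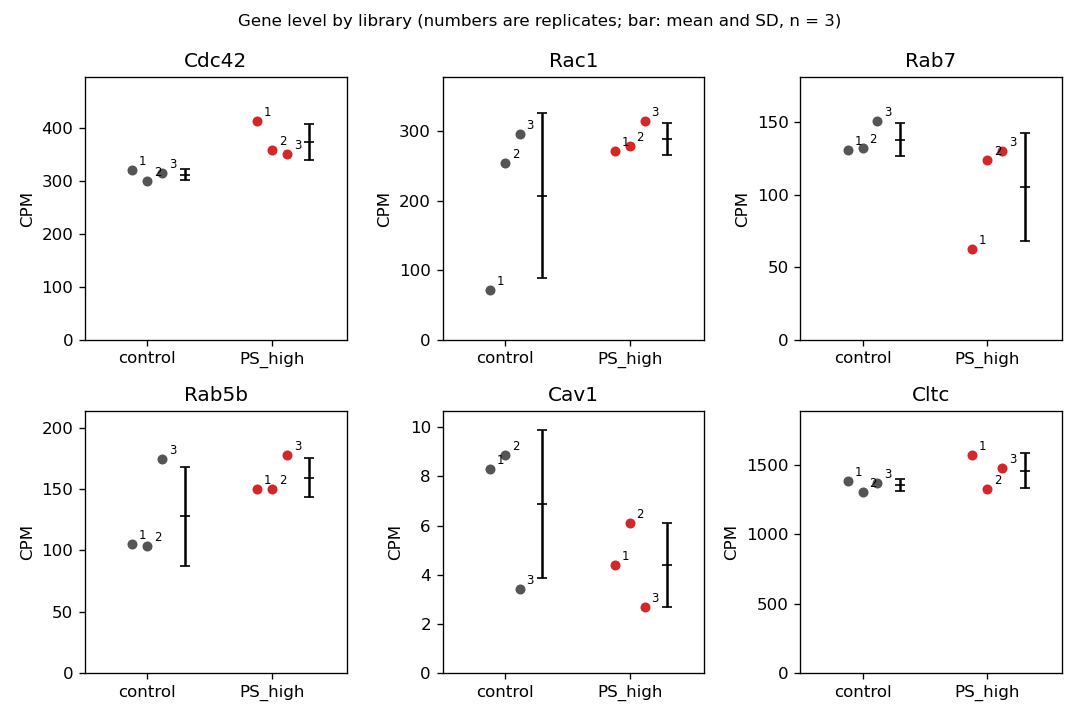
Level in CPM of 6 members in each library, with a point per library numbered by replicate, and beside each group its mean and SD (n = 3). Cdc42 is higher in each PS_high library than in each control, Rac1 is low in control 1 (72.0 CPM), Rab7 is low in PS_high 1 (62.7 CPM), and the remaining 3 genes overlap between the groups.

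In the endosome group 4 genes lay above 0 and 6 below, with a median log2 difference of -0.04. Rab7, the GTPase of late endosomes, was at 131, 132 and 151 CPM in control and at 62.7, 124 and 130 CPM in PS_high. PS_high 1 was far below the rest, and the other two PS_high libraries were just under the controls. The log2 difference was -0.39 (SE 0.269, 95% interval -1.02 to 0.24), and -0.11 without PS_high 1. When annotated isoforms alone were counted the direction turned, to 0.97 (unadjusted p = 0.0361, adjusted p = 1.0), since that count leaves out the assembled isoforms, which held 77.4% of the gene's counts. With the leading isoform alone it was -2.18.

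Of the 3 Rab5 paralogs, which define the early endosome, Rab5b had the largest log2 difference. It was at 105, 104 and 174 CPM in control and 150, 150 and 178 CPM in PS_high, so control 3 lay with the PS_high libraries (0.32, SE 0.226, unadjusted p = 0.194). Without control 3 the difference was 0.61 (unadjusted p = 0.00897, adjusted p = 1.0), and without control 1 or control 2 it was 0.20 (unadjusted p = 0.451 and 0.46). Rab5a and Rab5c had log2 differences of 0.14 and -0.16. The 3 paralogs summed to 266, 280 and 343 CPM in control and 347, 316 and 349 CPM in PS_high (exact permutation p = 0.2).

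Vps35, the core of the retromer that returns cargo from endosomes, was among the steadiest members. It stood at 256, 235 and 239 CPM in control and 244, 212 and 259 CPM in PS_high (log2 difference -0.03, 95% interval -0.34 to 0.28). Rab11a, of recycling endosomes, lay at 0.12, the tether Eea1 at -0.04, Snx1, which bends endosomal membrane, at -0.08, and the recycling proteins Ehd1 and Ehd3 at -0.16 and 0.07.

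Among scavenger receptors Mertk, by which microglia and astrocytes engulf dying cells, was the most abundant, at 60.4, 68.4 and 63.3 CPM in control and 65.6, 72.0 and 64.8 CPM in PS_high. The groups overlapped, with a log2 difference of 0.07 (SE 0.131, 95% interval -0.23 to 0.38). Scarb1, the receptor of high-density lipoprotein, was at 10.5, 12.5 and 11 CPM against 10, 16.1 and 11.3 CPM, where PS_high 2 alone was high (log2 difference 0.13, SE 0.233, and -0.10 without PS_high 2). Cd36 ranged over 23.7-fold between libraries, from 0.236 CPM in PS_high 1 to 5.58 in PS_high 3, and its interval of -2.06 to 2.18 bounds little. Msr1, not tested, was at 0.163 to 0.878 CPM over all libraries.

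Microglial markers, for cells that express these receptors, summed to 40.2 to 46.1 FPKM in control and 34.7 to 50.2 in PS_high. Markers of perivascular macrophages summed to 1.35 to 2.24 FPKM in control and 1.95 to 2.39 in PS_high. Their part in the values of the receptors was not tested.

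PS_high 1 was an extreme for many members. It was the lowest of the 6 libraries in 16 of the 39 (41%), against 24.6% of all genes tested, and the highest in 10 (25.6%), against 23.2%. The 16 included 4 of the 5 AP-2 subunits (Ap2a1, Ap2a2, Ap2m1 and Ap2s1), Clta, Epn1, Fcho1, Dnm2, both flotillins, Rab5c, Rab7, Snx1, Ehd1, Scarb1 and Cd36. The 10 included Cltc, Picalm, Eps15, Fcho2, Cavin2, Cdc42, Pak1, Rab5a, Rab11a and Eea1. Ap2a1, for example, was at 83.3 CPM there and at 105 to 132 CPM in the other 5 libraries. Of 52 markers of 10 cell types and tissues, 16 were lowest and 6 highest in PS_high 1. Among the lowest, the neuronal Slc17a7 was at 398 CPM there and 601 to 820 CPM elsewhere, the microglial Csf1r at 29.2 against 46.5 to 60.0 CPM, and the endothelial Cldn5 at 3.66 against 5.32 to 8.53 CPM. Among the highest, the neuronal Syt1 was at 2204.1 CPM there and 1380.7 to 1735.1 CPM elsewhere, and the astrocytic Gja1 at 194 against 148 to 187 CPM. Other markers of the same cell types went otherwise in PS_high 1. The endothelial Slco1a4 was at 180 CPM, as high as in any other library, and the astrocytic Aldh1l1 and Gfap were lowest, at 25.1 and 51.4 CPM. The microglial Cx3cr1 and P2ry12, at 9.72 and 18.7 CPM, lay within the range of the other libraries. The part of this library's difference in the members' values was not tested beyond leaving it out. Without PS_high 1 the members' median log2 difference was 0.07, none was called, and Ap2m1 had a log2 difference of 0.33 (edgeR unadjusted p = 0.0494, adjusted p = 0.996).

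**Figure D4:**
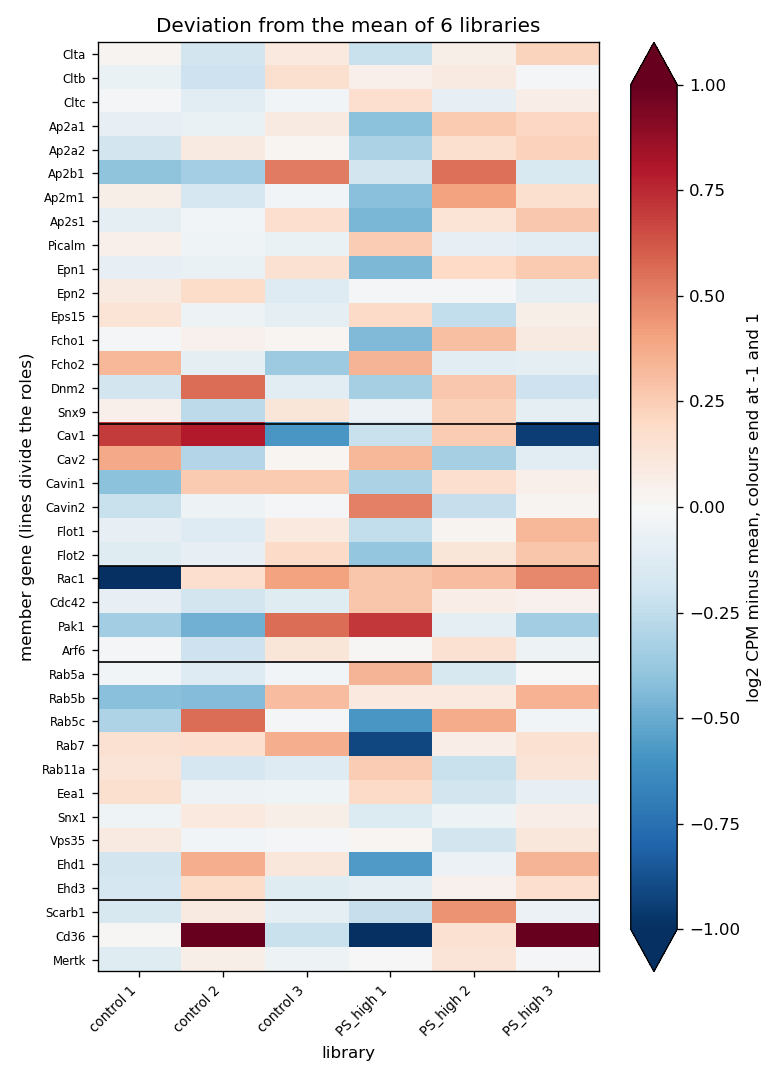
Deviation of each of the 39 tested members in each library from its own mean over the 6 libraries, in log2 CPM, with red above and blue below the mean and lines between the roles. The PS_high 1 column is mostly blue among AP-2 subunits, flotillins and Rab7 and red for Cltc, Picalm and Pak1. Past the ends of the colour scale lie Rac1 in control 1 and Cd36 in PS_high 1 (both blue), and Cd36 in control 2 and PS_high 3 (both red).

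The members' gene values are sums over 319 isoforms, 257 annotated and 62 assembled from the reads. Assembled isoforms held 36.6% to 43.3% of the members' counts in control and 29.7% to 35% in PS_high. Annotated coding isoforms held 52.1% to 58.3% and 60.2% to 65.5% (exact permutation p = 0.1 for each, the smallest possible). The same shares over all genes are not given here, so nothing particular to the members follows. They also rest on reads divided between isoforms by estimate. Retained-intron isoforms held 4.30% to 6.05% and 4.46% to 4.91%.

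Of 164 member isoforms tested, edgeR called 0, against 0.00433% of all 69330 isoforms. Its unadjusted p was under 0.05 for 3 of them (1.83%), against 3.58% of all isoforms, and 13 (7.93%) had groups that did not overlap, against 8.16%. DESeq2 called 2 of the members' isoforms, against 1.41% of all, and limma on FPKM called 0. Both are assembled variants of Rab5b, on chromosome 10 of the table's coordinates, of 6 exons each. MSTRG.5012.4 (10:128678542-128696257) was estimated at 183, 198 and 366 counts in the controls but at 9, 3 and 4 in PS_high. Its groups were far apart (log2 difference -5.41, SE 0.579, unadjusted p = 1.51e-04), and edgeR's adjusted p was 0.238 where DESeq2's was 1.84e-17. MSTRG.5012.2 (10:128678538-128696257) went the other way, from 127, 263 and 301 counts in the control libraries to 514, 609 and 618 in the PS_high libraries. Its log2 difference was 1.48 (SE 0.411, unadjusted p = 0.0134, edgeR adjusted p = 1.0, DESeq2 adjusted p = 0.0233).

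These variants differ by 158 bases in spliced length and have the same number of exons. Together they held 6.03%, 8.83% and 6.98% of the Rab5b counts in control and 7.45%, 9.53% and 6.98% in PS_high, so their sum overlapped between the groups while their division did not. The main coding isoform, ENSMUST00000000727, held 81.7% to 89.4% of the gene in all 6 libraries, from 4455, 4477 and 8504 control counts to 6277, 5248 and 7885 in PS_high. Reads shared by isoforms are divided between them by estimate, and whether the difference lies in the transcripts or in that division was not tested.

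**Figure D5:**
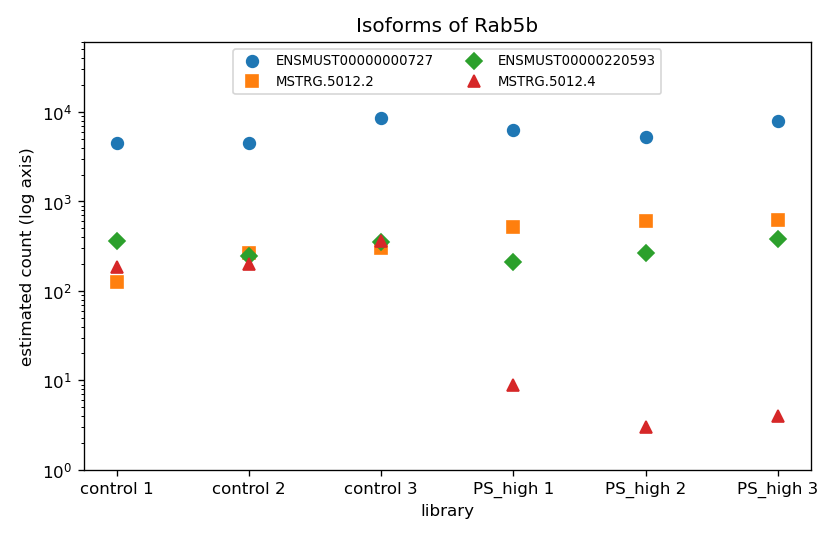
Estimated counts of 4 isoforms of Rab5b in each library on a log axis. MSTRG.5012.4 lies between 183 and 366 in the controls and between 3 and 9 in PS_high, MSTRG.5012.2 lies between 127 and 301 and then between 514 and 618, and the main isoform ENSMUST00000000727 overlaps between the groups.

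The other isoforms with the smallest p belong to Picalm, Rab7 and Rab11a. Picalm's coding isoform ENSMUST00000209068 received 150, 164 and 111 control counts against 549, 122 and 434, high in 2 of the 3 PS_high libraries (log2 difference 1.46, unadjusted p = 0.0421). Its retained-intron isoform ENSMUST00000208891 held 332, 315 and 335 counts against 583, 318 and 533, with PS_high 2 at the control level (0.66, unadjusted p = 0.0525). For Rab7 the annotated isoform ENSMUST00000113600 rested on PS_high 1, at 1031, 759 and 1060 counts among controls against 2745, 1097 and 1241. It made up 93.7% of the gene in that library and 11.5% to 20.7% in the others. Rab11a's short ENSMUST00000166857 had 26, 36 and 23 counts against 65, 25 and 66 (0.98, unadjusted p = 0.0691).

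Single isoforms could be all or nothing between libraries. In 13 members, 21 isoforms had at least 500 counts in a library and 0 in another. ENSMUST00000090023 of Ap2m1 had 5394 counts in PS_high 2 and 0 in the other 5 libraries, while the assembled MSTRG.15038.4 of the same gene fell to 563 counts there from 3336 to 5886 elsewhere. Pak1's MSTRG.36225.6 had 3835 to 11650 counts in 5 libraries and 0 in PS_high 3, where MSTRG.36225.8 had 5149. These were chosen after their values were seen. The gene total of Ap2m1 ranged less, from 86.9 to 153 CPM, with PS_high 2 the highest.

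Circular RNAs (circRNAs), closed by a back-splice between exons, were few for these genes. The circRNA table held 52 from 20 of the members, 42 of exons and 10 of introns, with 166 back-splice reads in all, and 26 of the 52 had 1 read. Of the 4 with reads in at least 3 libraries, edgeR called 0, against 0.0305% of 3275 circRNAs, and its unadjusted p was under 0.05 for 0 of them, against 4.95% of all. The most abundant was a circle of 3 exons of Rab11a (mmu_circ_0015782, 9:64725502-64728429), with 9, 3 and 16 reads in control and 10, 8 and 4 in PS_high (log2 difference -0.14, SE 0.666). Next came Epn2 (circRNA594) with 1, 4 and 0 against 1, 4 and 1 reads, Ap2a1 (mmu_circ_0001561) with 3, 0 and 3 against 3, 0 and 0, and Mertk (circRNA3154) with 2, 1 and 2 against 0, 1 and 1. A second Ap2a1 entry (circRNA7734) shares the end and the 3 exons of the first and starts at 44915842 against 44915841. It had 3 reads, all in control 2, and was not tested. All reads of member circRNAs came to 30, 23 and 44 in control and 25, 26 and 18 in PS_high. Scaled by library (SRPBM) that was 254 ± 87.9 against 210 ± 53.2 (SD, n = 3 each, exact permutation p = 0.5).

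A wider list of 114 genes of the same routes, from adaptors and synaptojanins to sorting nexins and phagocytic receptors, was read from the same test. Of the 103 tested, edgeR called 0, against 0.0247% of all genes. With a median log2 difference of 0.03, 60 lay above 0 and 43 below, where 48.5% of all genes lay above 0. DESeq2 also called 0, against 0.232% of all genes, and limma on log2(FPKM + 0.1) called 0 here and 0 of all genes. At an unadjusted p under 0.05 there were 2 of the 103, against 554 of all 20272 genes (2.73%). Groups did not overlap for 12 of the 103, against 1438 of all 20272 (7.09%). The latter share is above that of all genes, and the excess was not tested. Synj2, a phosphatase that strips phosphoinositides during uncoating, had the smallest p, at 134, 149 and 156 CPM in control and 81.6, 99.5 and 119 CPM in PS_high. Each PS_high library lay below each control (log2 difference -0.55, SE 0.170, unadjusted p = 0.013, adjusted p = 1.0; -1.95 to -0.34 over the alternatives). Dab2, an adaptor for lipoprotein receptors, was at 5.90, 8.97 and 6.58 CPM against 9.98, 12.1 and 9.35 CPM (0.55, SE 0.236, unadjusted p = 0.0498). Its groups did not overlap either. Itsn1, a scaffold that links the pit to actin, was at 212, 171 and 200 CPM against 246, 242 and 225 CPM (0.29, SE 0.138). Rab11fip4, an effector of Rab11, was at 195, 260 and 195 CPM against 227, 300 and 323 CPM (0.39, SE 0.191), with overlapping groups. By route, the tested genes above and below 0 were 17 and 18 for clathrin, 3 and 4 for caveolae, 7 and 3 for macropinocytosis, 23 and 10 for the endosome and 10 and 8 for phagocytosis. None of these splits was tested against the 48.5% of all genes above 0.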

How the data were processed

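Total RNA depleted of ribosomal RNA was sequenced with a stranded kit, per the labels' protocols. HISAT2, StringTie and TopHat appear in the submitters' processing notes. Tool versions and the genome build: not given in the sources used here. Per isoform of linear RNA, the authors deposited FPKM and an estimated count, and per circRNA a back-splice read count and the scaled signal SRPBM. Reads shared by isoforms are divided by estimate, so isoform values can exchange reads. Counts of isoforms sharing exons with a gene were summed by symbol; for the members, 8 isoforms inside introns and 1 antisense were left out. Features tested were genes or isoforms averaging 0.5 FPKM or more and circRNAs found in 3 or more libraries. They were tested with edgeR 4.0.16 (R 4.3.3, quasi-likelihood, two-sided, Benjamini-Hochberg over all features, with TMM, or SRPBM totals for circRNAs). The gene test alone was also run on simulated counts, with changes of 2-fold or more. That run does not bear on smaller differences, isoforms or circRNAs. DESeq2 1.42.0 and limma 3.58.1 on log2(FPKM + 0.1) were alternatives. CPM are counts scaled by TMM library size. Named genes were, in each role, those whose groups did not overlap, the 2 of smallest p and the most abundant; 4 other pathway genes, 6 isoforms and the leading circRNAs followed by p or reads. Members and lists were chosen with earlier results of these data known.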

Additional observations from a re-analysis of the deposited data

How the results depend on the processing

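No member was called in any of the 15 alternatives (other library factors, DESeq2, no filter, replicate block, each library left out, limma on FPKM at 2 pseudocounts, 3 choices of isoforms), and the members' median log2 difference stayed between -0.01 and 0.08. The replicate block and limma on log2(FPKM + 0.1) called 0 of all 20272 genes, so their 0 calls among members say nothing particular. DESeq2 called 2 member isoforms where edgeR called 0. Many members near 0 changed sign in some alternatives. Fcho1 kept its sign in 7 of 15, Epn1 and Eps15 in 9 of 15 each, and Cd36 in 8 of 14. Turns are listed next only for the members named by rule. The direction turned for Dnm2 without control 2 (0.08, in a range of -0.41 to 0.08 over the libraries left out) and with annotated isoforms only (0.48). For Flot2 it turned without control 1 (-0.03), control 2 (-0.02), PS_high 2 (-0.03) or PS_high 3 (-0.12; up to 0.20 without PS_high 1), with limma at either pseudocount (-0.04 and -0.03) and with annotated isoforms only (-0.37). It turned for Rab7 with annotated isoforms only (0.97), for Vps35 without control 1 (0.01) or PS_high 2 (0.04; down to -0.09 without PS_high 3), and for Scarb1 without PS_high 2 (-0.10; up to 0.28 without PS_high 1), with intronic isoforms (-0.08) or with the leading isoform only (-0.30), as for Mertk (-0.71). The cause was not tested. With the replicate number as a block, 0 members were called and Cav1 had an edgeR unadjusted p of 0.0359 (log2 difference -0.61). In deviations from the group means, same-numbered samples correlated at 0.144, 0.0817 and 0.0604, and each sample correlated best with its own number. That pattern comes from the data and not from the design. Deviations within a group sum to 0, so these correlations depend on one another and cannot decide whether samples were paired. With 3 samples a group the intervals are wide, which limits what they can exclude.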

Other observations

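Of the members' isoforms, 9 were left out of the gene sums, 8 inside introns and 1 antisense. In the test of all isoforms edgeR called 0 of these 9, and 1 had an unadjusted p under 0.05, against 3.58% of all isoforms. Groups did not overlap for 2 of the 9, against 8.16% of all isoforms, and both are named after their values were seen. MSTRG.31048.1, an intronic isoform inside Scarb1 with no strand given, had 209, 335 and 291 estimated counts in control and 169, 149 and 149 in PS_high (log2 difference -0.70, unadjusted p = 0.0563, adjusted p = 1.0). MSTRG.16097.1, inside Snx9, was estimated at 11, 35 and 28 counts in control and at 0, 5 and 1 in PS_high (log2 difference -3.35, unadjusted p = 0.033, adjusted p = 1.0).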
